A study of Arabidopsis thaliana with 108 samples.

Results

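The subject was the set of 5 Myc ChIP-seq peak lists made from Arabidopsis leaves that carried Myc-JMJ14, a Myc-tagged genomic copy of the histone demethylase gene JMJ14 under its own promoter. All 5 lists of this kind among the 46 peak lists of the series were taken. They held 3347 distinct intervals on chromosomes 1 to 5, of 573343 in all peak lists of the series. By label, 2 lists came from Myc-JMJ14 plants with TRB1-ZF (replicates 1 and 2), 1 from plants with TRB2-ZF, 1 from plants with TRB3-ZF, and 1 from plants for which no TRB-ZF was named. All 5 labels gave leaves of plants aged 3 to 4 weeks, an anti-Myc antibody and the strain Columbia-0, and the list without a named TRB-ZF is called the list labelled Col-0 here. In a TRB-ZF transgene a TRB protein with its own promoter is joined to FLAG and to the zinc finger ZF108, which binds the promoter of the flowering gene FWA. According to the study, the TRB-ZF lines were made in fwa plants, which carry an unmethylated, active FWA epiallele. The study then crossed Myc-JMJ14 with the TRB-ZF lines, and it does not state the FWA epiallele of the crossed plants. TRB-ZF (3 TRB1-ZF, 2 TRB2-ZF, 2 TRB3-ZF for H3K4me3) and fwa (3) plants also gave histone peak lists, and plants with FLAG-JMJ14 or a FLAG-TRB gave FLAG peak lists from flower buds, without ZF108. The labels of these histone and FLAG libraries gave plants aged 5 to 6 weeks. The Myc libraries addressed whether TRB-ZF fusions bring JMJ14 to the sites of the zinc finger, and whether this differs with the H3K4me3 level of those sites. FWA is one such site, and the off-target sites of ZF108 were not analysed as a set here.

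TRB1, TRB2 and TRB3 are telomere repeat-binding proteins with a single Myb domain that also sit at many genes. JMJ14 is a JmjC-domain demethylase that removes methyl groups from lysine 4 of histone H3, and it works together with the paralogous NAC transcription factors NAC050 and NAC052. H3K4me3 marks the 5′ part of active genes, and H3K27me3 marks genes silenced by Polycomb.

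The labels and the deposited lists disagreed for 4 of the 5 libraries. The list labelled TRB1-ZF replicate 1 was named after TRB1 in its file and in its peak names, as in its label. The list labelled TRB1-ZF replicate 2 was named after TRB2, and the list labelled TRB2-ZF after TRB3. The list labelled TRB3-ZF was named after no TRB, and the list labelled Col-0 after TRB1. Each list is called below by its label, as the labels put the samples in their groups, and any direction drawn between lists carries this doubt. A genomic transgene can add signal at its own locus, so the 5 loci of the transgenes and of FWA were read first.

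At FWA (AT4G25530, chr4:13038360-13042464, plus strand, TAIR10), the list labelled TRB1-ZF replicate 1 had a peak of fold 5.20 over background (-log10 q = 54.8), the highest fold of its 478 peaks. The list labelled TRB2-ZF had a peak of fold 4.31 there (-log10 q = 23.3), rank 3 of 530. No FWA peak was listed under the labels TRB1-ZF replicate 2, TRB3-ZF or Col-0. The FWA peak of the list labelled TRB1-ZF replicate 1 covered chr4:13038064-13038578 with its summit 63 bp upstream of the start site. That of the list labelled TRB2-ZF covered chr4:13038085-13038448 with its summit 104 bp upstream. Both summits therefore lay just outside the first exon, which is 5′ UTR, on its promoter side. The sequences around these summits (RefSeq TAIR10.1, plus strand, summit base in capitals) are shown because this locus is the target of the zinc finger.
FWA summit, list labelled TRB1-ZF replicate 1, chr4:13038283-13038311: atattctttatcgaAgcccatacatcttt
FWA summit, list labelled TRB2-ZF, chr4:13038242-13038270: tatgggccgaagccCatacatctttccgt

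The other transgene loci went with the file names rather than with the labels. TRB1 (AT1G49950) had its highest peak in the list labelled Col-0, with a fold of 4.34 over 4054 bp, rank 1 of 296. It also had a peak of fold 2.11 in the list labelled TRB1-ZF replicate 1, rank 83 of 478. Both of these lists were named after TRB1 in the files. TRB2 (AT5G67580) had a peak only in the list labelled TRB1-ZF replicate 2, with a fold of 2.71 and rank 9 of 1032, and that file was named after TRB2. TRB3 (AT3G49850) had a peak only in the list labelled TRB2-ZF, with a fold of 4.16 and rank 4 of 530, and that file was named after TRB3. JMJ14 itself (AT4G20400), which every one of these plants should carry as a transgene, had peaks only in the list labelled TRB3-ZF, the best with a fold of 2.89 and rank 580 of 1011. The same list alone had a peak at NAC050 (fold 2.91), whereas NAC052 had none in any list. The list labelled TRB3-ZF, named after no TRB, had no peak at TRB1, TRB2 or TRB3. The labels alone cannot tell whether labels or file names are right, but the peaks at the TRB loci went with the file names. The list labelled Col-0 is therefore set beside the others below as another list, not as a control without a TRB-ZF. Where its value follows those of the other lists after "against", no contrast with a control is meant. The list named after no TRB is among those other lists, under the label TRB3-ZF. Under the file names, FWA had a peak in 1 of the 2 lists named after TRB1 and in the list named after TRB3, and in neither the list named after TRB2 nor the list without a TRB.

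**Figure D1:**
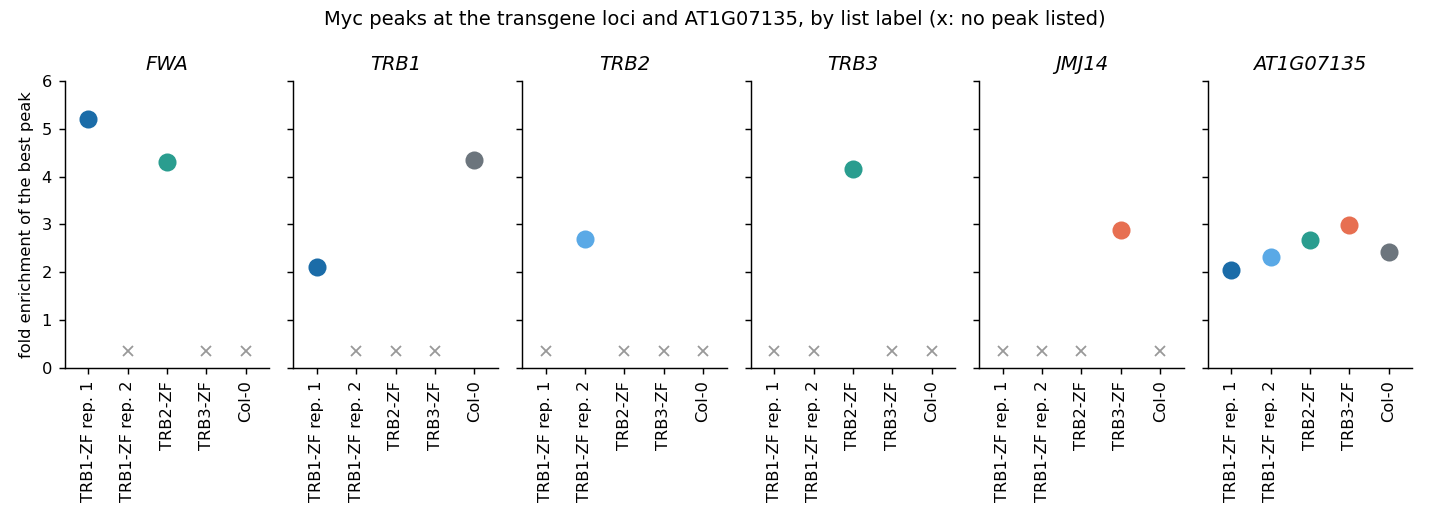
Fold enrichment of the best Myc peak (y axis) at FWA, TRB1, TRB2, TRB3, JMJ14 and AT1G07135 in each of the 5 lists, by label (x axis), with a cross where no peak was listed. FWA had peaks of fold 5.20 and 4.31 in 2 lists, each of TRB2, TRB3 and JMJ14 had peaks in 1 list, and AT1G07135 had a peak in all 5.

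The lists differed in length and strength. The list labelled TRB1-ZF replicate 1 had 478 distinct peaks (median width 294.5 bp, median fold 1.87), and that labelled TRB1-ZF replicate 2 had 1032 (301.5 bp, 1.88). The list labelled TRB2-ZF had 530 (354 bp, 2.12), and that labelled TRB3-ZF had 1011 (386 bp, 2.98). The list labelled Col-0 had 296 (450.5 bp, 1.91). Thus the longest list had over 3 times the peaks of the shortest, and the list labelled TRB3-ZF had the highest median fold, with folds of up to 8.47. Its median -log10 q was the lowest, 4.61, against 5.00 to 7.21 in the other lists. Its lowest fold was 1.59, against 1.27 to 1.37 in the others. Whether folds are on the same scale between lists was not tested. Peak lists hold no read counts, so sequencing depth is unknown, and intervals on shares of peaks cover counting error only. Only the label TRB1-ZF had 2 lists, and these were named after TRB1 and TRB2 in the files. The 2 lists named after TRB1 were those labelled TRB1-ZF replicate 1 and Col-0. Differences between labels therefore had no replicate check and were not tested.

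Merging the 5 lists gave 2085 Myc regions, most of them found once. Of these, 1371 (65.8%) were under a peak of 1 list, 474 of 2 lists, 119 of 3 lists, 90 of 4 lists and 31 (1.49%) of all 5. The list labelled TRB3-ZF had the most regions of its own, 677 of its 994 (68.1%). The list labelled TRB1-ZF replicate 2 had 397 of 989 (40.1%) of its own, that labelled TRB2-ZF 161 of 506 (31.8%) and that labelled TRB1-ZF replicate 1 107 of 445 (24.0%). The list labelled Col-0 had 29 of 257 (11.3%) of its own. This order depended on the length of the lists. With every list cut to 296 peaks by fold, 119, 124, 150 and 265 regions were found only in the lists labelled TRB1-ZF replicate 1, TRB1-ZF replicate 2, TRB2-ZF and TRB3-ZF, against 148 in that labelled Col-0. Of the 90 regions in 4 lists, 57 were missing only from the list labelled TRB3-ZF and 22 only from that labelled Col-0.

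The 2 lists labelled TRB1-ZF shared 327 of the 478 peaks of replicate 1 (68.4%) and 311 of the 1032 of replicate 2 (30.1%). The 2 lists named after TRB1 in the files, labelled TRB1-ZF replicate 1 and Col-0, shared 141 of 478 (29.5%) and 131 of 296 (44.3%). The lists labelled TRB2-ZF and Col-0 shared 194 of 530 (36.6%) of the peaks of the list labelled TRB2-ZF and 216 of 296 (73.0%) of those of the list labelled Col-0. The list labelled TRB3-ZF shared between 5.34% of its peaks (with the list labelled Col-0) and 31.4% (with that labelled TRB1-ZF replicate 2). The list labelled TRB3-ZF therefore stood furthest from the others in these shares.

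**Figure D2:**
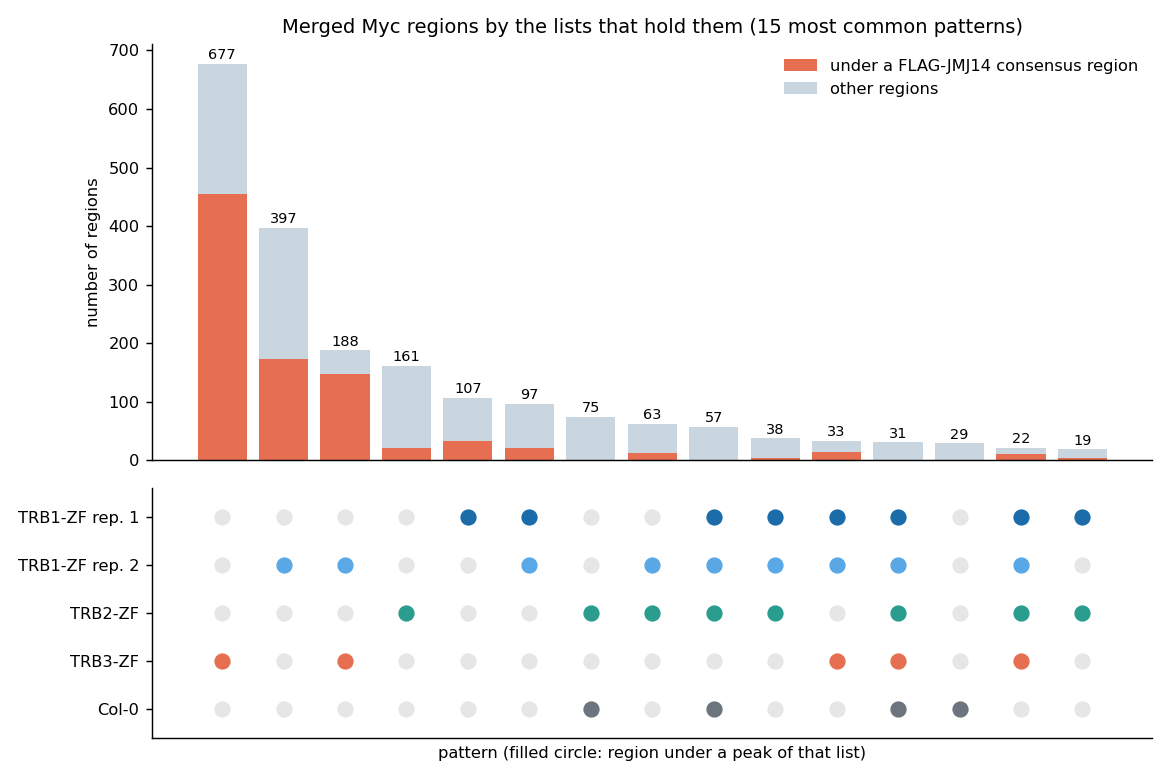
Number of merged Myc regions (y axis) for the 15 most common combinations of lists (columns), with filled circles below for the lists that hold them and the part under FLAG-JMJ14 consensus regions in orange. The largest classes were the regions found only in the list labelled TRB3-ZF (677) and only in that labelled TRB1-ZF replicate 2 (397), and 31 regions were in all 5 lists.

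The 31 regions in all 5 lists were ordered by their mean rank by fold. No Myc library without Myc-JMJ14 was analysed here, so whether these sites also give Myc peaks without it was not tested. The best-ranked region was at AT1G32920, an uncharacterized gene, with folds of 2.1, 2.56, 3.40 and 3.03 in the lists labelled TRB1-ZF replicate 1, TRB1-ZF replicate 2, TRB2-ZF and TRB3-ZF, against 2.28 in that labelled Col-0. In the same order of lists, TCH2, a calmodulin-like protein induced by touch, had folds of 1.80, 1.98, 2.22 and 3.33, against 2.06 in the list labelled Col-0. DIC2, a dicarboxylate carrier of mitochondria, had folds of 2.16, 2.59, 4.73 and 2.69, against 2.75. These values overlapped between lists, and the list labelled Col-0 lay inside the range of the others for each of these genes. The other members of the 10 best ranked were AT3G57450, AT1G07135, NUDT21 (a Nudix hydrolase), AT2G23118, SZF1 (a CCCH zinc finger protein induced by salt), ERD10 (a dehydrin) and RDUF1 (a RING-type ubiquitin ligase). AT1G07135 had folds of 2.05, 2.33, 2.67 and 2.99, against 2.43. It is drawn beside FWA in the browser views of the study, which gives the genes there as representative off-target genes of the zinc finger. Also in those views, NUDT4 (AT1G18300) had peaks in all lists but that labelled TRB3-ZF, with folds of 2.23, 1.72 and 3.36, against 2.02 in the list labelled Col-0. AT1G18310, beside NUDT4, was touched only by the NUDT4 peak of the list labelled TRB2-ZF.

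Among the remaining regions in all 5 lists were those of the transcription factor genes WRKY70, ERF4, MYBR1, MYB73, MYB77 and RAV1, the dehydrin gene ERD14, the RNA deadenylase gene CAF1a, the clock-regulated RNA-binding protein gene GRP7 and the polyubiquitin gene UBQ11. Of the 31 regions, 23 had their mean summit in an exon outside the UTRs (74.2%), against 23.7% of the genome. All 31 had a H3K4me3 peak in each of 7 TRB-ZF and 3 fwa libraries. Only 1, at MYBR1, was under a FLAG-JMJ14 consensus region, while 22 (71.0%) were under a FLAG-TRB1 one. The wide regions of this class (median 1647 bp, against 357 bp over all regions) can meet another region more easily, and the part of width in these shares was not tested.

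Gene groups fixed by symbol were read against all protein-coding genes, of which 1618 of 27444 (5.90%) had a Myc region at their body or in the 1 kb upstream. By list the share of all genes was 1.33%, 3.00%, 1.25% and 3.22% in the lists labelled TRB1-ZF replicate 1, TRB1-ZF replicate 2, TRB2-ZF and TRB3-ZF, against 0.583% in that labelled Col-0. Among WRKY transcription factors, which act in defence, 8 of 72 (11.1%) had one, with 3, 5, 5 and 1 in the lists labelled TRB1-ZF replicate 1, TRB1-ZF replicate 2, TRB2-ZF and TRB3-ZF, against 3 in that labelled Col-0. WRKY40 had folds of 2.20, 2.49 and 3.60 in the first 3 of these, none in the list labelled TRB3-ZF, and 3.04 in that labelled Col-0. AP2/ERF factors of ethylene, cold and drought responses had 13 of the 48 picked by symbol (27.1%), with 5, 7, 7 and 5, against 5. RAV2 was among these 48, whereas RAV1, with a region in all lists, was not. Calmodulin-like and TCH genes had 5 of 16 (31.2%), with 4, 4, 3 and 1, against 2. TCH4, a touch-induced enzyme of cell wall xyloglucan, had folds of 2.07, 2.57 and 3.05 and no peak in the list labelled TRB3-ZF, against 3.12 in that labelled Col-0. JAZ1, a repressor of jasmonate signalling and the only one of 12 JAZ genes with a region, was in 4 lists and not in that labelled TRB3-ZF. In the list labelled TRB3-ZF the share of WRKY genes (1.39%) and of JAZ genes (0%) was below the 3.22% of all genes. In the same list the share of AP2/ERF genes (10.4%) and of calmodulin-like and TCH genes (6.25%) was above it. These shares were counted over few genes picked by symbol, not always over whole families, and were not tested.

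Of NAC transcription factors, 8 of 99 (8.08%) had a Myc region, against 5.90% of all genes. Under a FLAG-JMJ14 consensus region were 42.4% of them, against 17.8% of all genes. The Myc and FLAG shares were not counted alike. A Myc region was given to a single gene by its mean summit, whereas a FLAG-JMJ14 region could count for several. Heat shock proteins and factors had 4 of 46 (8.70%), and AGAMOUS-LIKE MADS genes 3 of 98 (3.06%). None of the 7 floral organ MADS genes AP1, AP3, PI, AG, SEP1, SEP2 and SEP3 had a Myc region in these leaf lists. The list of cytosolic ribosomal protein genes also held organelle proteins and was not used.

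Light-harvesting genes, which encode the chlorophyll-binding antenna proteins of the chloroplast, had peaks mainly in the list labelled TRB3-ZF. Of 20 such genes, 17 (85%) had a peak in it, against 3.22% of all genes, with folds between 2.23 and 8.47 (median 4.90). The lists labelled TRB1-ZF replicate 1, TRB1-ZF replicate 2 and TRB2-ZF had peaks at 0, 3 and 1 of them, and that labelled Col-0 at 0. CAB2 had the highest fold of the whole list, 8.47, and the next values among these genes were those of LHB1B2 (7.66), LHCA4 (6.35) and CAB1 (6.24). The 4 peaks at these genes in other lists had folds between 1.34 and 1.82, all below any value at these genes in the list labelled TRB3-ZF. In that list no peak at any site had a fold below 1.59. CAB1, CAB2 and CAB3 are close copies and lie next to each other. The methods state that only reads with 1 unique site and no mismatch were aligned. Under that rule reads that fit more than 1 of these genes were lost, to an extent the lists do not show. Of the 20 genes, 6 (30%) were under a FLAG-JMJ14 consensus region, against 17.8% of all genes. Light-harvesting genes are among the most transcribed genes of leaves, and the part of transcription level in these peaks was not tested.

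**Figure D3:**
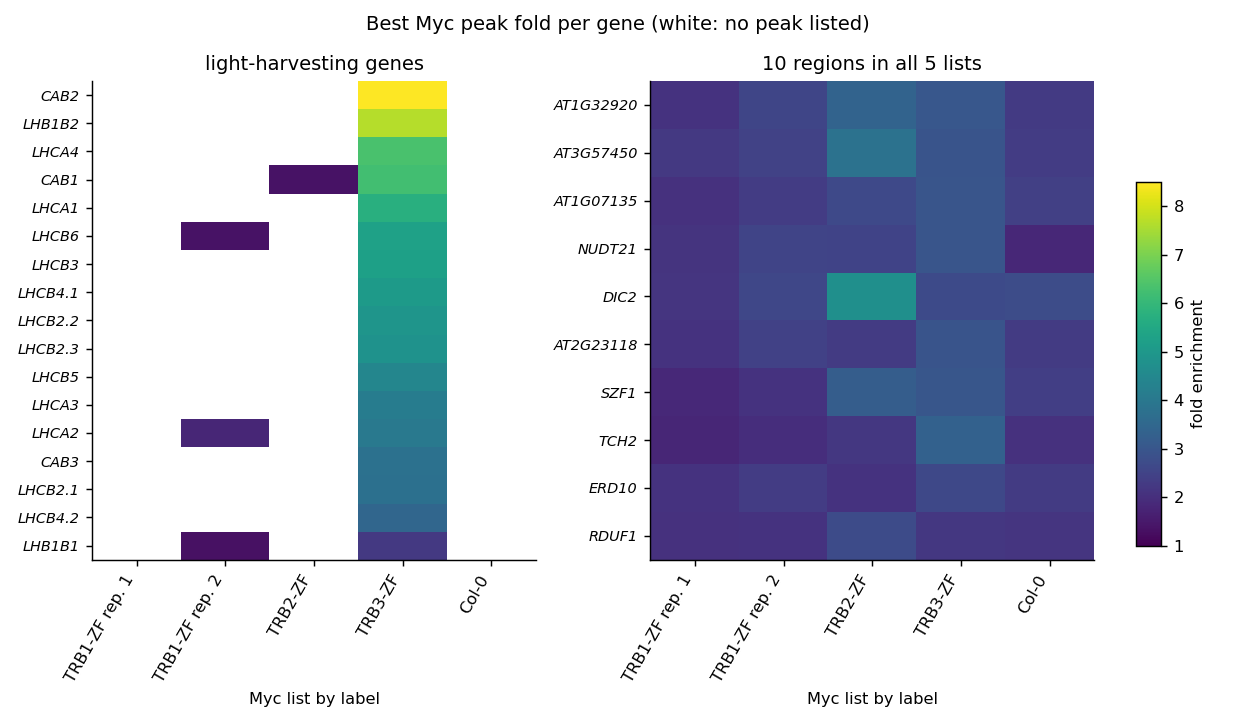
Fold enrichment (colour scale) of the best Myc peak at 17 light-harvesting genes (left) and at the 10 best-ranked regions in all 5 lists (right), with genes in rows and lists by label in columns, white where no peak was listed. The light-harvesting genes had folds between 2.23 and 8.47 in the list labelled TRB3-ZF and few peaks elsewhere, while the genes on the right had peaks in every list.

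Regions found in 1 list only were ordered by their fold. In the list labelled TRB1-ZF replicate 1 the highest were a region without a gene on chromosome 4 (fold 3.56), AT1G80290 (3.21) and AT1G62110 (2.91). In the list labelled TRB1-ZF replicate 2 the regions of its own were headed by AT1G01570 (3.51), OPR3 (2.77), an enzyme of jasmonate synthesis, and TRB2 (2.71). Those of the list labelled TRB2-ZF were headed by TRB3 (4.16), MFP2 (3.99), an enzyme of peroxisomal fatty acid breakdown, and AT2G06040 (3.32). The antenna genes CAB2, LHB1B2 and LHCA4 headed those of the list labelled TRB3-ZF. Of the 29 regions found only in the list labelled Col-0, the highest were a region without a gene on chromosome 3 (2.55), ERD6 (2.46) and ECH2 (2.28). AT1G80290, OPR3, AT2G06040, LHB1B2 and LHCA4 each had a H3K4me3 peak at the region in all 10 libraries. The chromosome 4 region, AT1G62110, AT1G01570, MFP2 and ECH2 had one in 0 libraries, and the others of these regions had one in some.

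Regions present in 4 lists and absent from 1 were grouped by the list that lacked them. Those missing only from the list labelled TRB3-ZF were headed by RTFL12, a small peptide of the ROTUNDIFOLIA family (2.57, 2.44 and 4.44, against 2.78 in the list labelled Col-0), AT2G41105 and WRKY40, and 1 of these 57 regions (1.75%) was under FLAG-JMJ14. Those missing only from the list labelled Col-0 were headed by AT3G56820 (2.28, 2.58, 2.21 and 4.61), MTHSC70-2, a mitochondrial HSP70 chaperone (2.1, 2.49, 2.27 and 3.97), and AT1G16820 (1.97, 2.35, 2.12 and 5.18). Of these 22 regions, 11 (50%) were under FLAG-JMJ14 and 21 (95.5%) under FLAG-TRB1. LRX3, a leucine-rich repeat extensin of the cell wall, EP1 and GER1, a germin-like protein, headed the 6 regions missing only from the list labelled TRB2-ZF. AT1G22190 and AT3G22235 headed the 5 missing only from that labelled TRB1-ZF replicate 1, and no region was missing only from replicate 2.

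The lists differed widely in how far they lay on JMJ14 sites known from the FLAG libraries. FLAG-JMJ14 consensus regions, found in both FLAG-JMJ14 lists, numbered 4644 and covered 2.63% of the genome. They held 64.6% of the peaks of the list labelled TRB3-ZF (Wilson 95% interval 61.6 to 67.5) and 39.1% (36.1 to 42.1) of that labelled TRB1-ZF replicate 2. They held 20.9% (17.5 to 24.8) of the list labelled TRB1-ZF replicate 1, 13.4% (10.8 to 16.6) of that labelled TRB2-ZF and 1.35% (0.527 to 3.42) of that labelled Col-0. These intervals cover counting error within a list only, and those of the 2 lists labelled TRB1-ZF lay apart as well. They do not measure differences between backgrounds. The share of the list labelled Col-0 was below the share of the genome these regions cover. Under the file names the contrast turns: the list with 64.6% is the one named after no TRB, and the lists with 20.9% and 1.35% are both named after TRB1. Read the other way, 13.4% of the FLAG-JMJ14 regions had a peak in the list labelled TRB3-ZF and 0.0861% in that labelled Col-0.

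FLAG-TRB1 consensus regions held 47.5%, 57.1%, 35.5% and 72.9% of the lists labelled TRB1-ZF replicate 1, TRB1-ZF replicate 2, TRB2-ZF and TRB3-ZF, against 18.6% of that labelled Col-0. FLAG-TRB2 regions held 34.7%, 42.1%, 23.4% and 57.2%, against 11.5%, and FLAG-TRB3 regions 23.0%, 31.3%, 14.9% and 45.6%, against 5.74%. The order of the 5 lists was the same for all 4 proteins. The share under FLAG-JMJ14 was lower the more lists held a region, with 49.9%, 40.9%, 28.6%, 14.4% and 3.23% for regions in 1, 2, 3, 4 and 5 lists. Among regions in exactly 2 lists, 147 of the 188 shared by the lists labelled TRB1-ZF replicate 2 and TRB3-ZF (78.2%) were under FLAG-JMJ14, against 22 of the 97 shared by both lists labelled TRB1-ZF (22.7%) and 0 of the 75 shared by those labelled TRB2-ZF and Col-0. With equally long lists, the share of the list labelled TRB1-ZF replicate 2 was 21.6%. With a -log10 q of at least 10 for Myc and FLAG peaks, the shares were 4.84%, 10.3%, 0.752% and 44.1% in the lists labelled TRB1-ZF replicate 1, TRB1-ZF replicate 2, TRB2-ZF and TRB3-ZF, against 1.06% in that labelled Col-0. The list labelled TRB3-ZF still had the highest share, and that labelled TRB2-ZF then had the lowest. The FLAG lists came from flower buds of plants aged 5 to 6 weeks and the Myc lists from leaves of plants aged 3 to 4 weeks. The part of tissue and age was not tested.

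**Figure D4:**
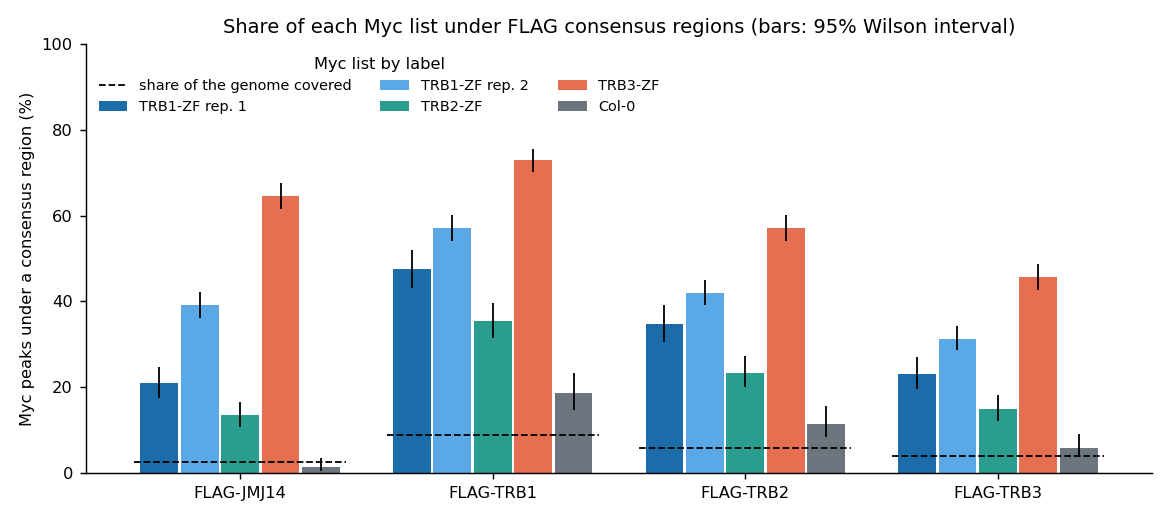
Share of the peaks of each Myc list (y axis, percent) under consensus regions of FLAG-JMJ14, FLAG-TRB1, FLAG-TRB2 and FLAG-TRB3 (x axis), with 95% Wilson intervals and the share of the genome covered as a dashed line. The list labelled TRB3-ZF had the highest share for each protein (64.6% for FLAG-JMJ14) and that labelled Col-0 the lowest (1.35%).

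The DNA under the peaks was read for 4 motifs on both strands. They were CTTGNNNNNCAAG (the spaced palindrome bound by NAC050 and NAC052), AAACCCTAA (the plant telobox), TTAGGG (a part of the telomere repeat that overlaps the telobox) and GAGAGAGA. A match is a description of the sequence. The sites below are the match nearest the mean summit in the region of highest fold with a match within 100 bp of that summit, for each list that had one (29 bases, RefSeq TAIR10.1, motif in capitals).
AT5G12090, list labelled TRB1-ZF replicate 1, chr5:3910547-3910575, plus strand: atatgtgcCTTGTGATGCAAGagagttta
AT3G05741, list labelled TRB1-ZF replicate 2, chr3:1702095-1702123, plus strand: atccgtttCTTGTGATGCAAGaaataccc
SUS6, list labelled TRB2-ZF, chr1:27584939-27584967, plus strand: gtcactttCTTGGTCTACAAGaaaccata
AT5G55150, list labelled TRB3-ZF, chr5:22383460-22383488, plus strand: agtagaaaCTTGGGATCCAAGgaaccgtg
KCS8, telobox, list labelled TRB1-ZF replicate 1, chr2:6542588-6542616, plus strand: gtcagtatccAAACCCTAAtgggacacgc
AT3G57790, telobox, list labelled TRB1-ZF replicate 2, chr3:21407583-21407611, minus strand: aggtaacaaaAAACCCTAAattgactcat
TET8, telobox, lists labelled TRB2-ZF and Col-0, chr2:10136779-10136807, plus strand: aattcactaaAAACCCTAAaaaaaaagtt
LHCB2.2, telobox, list labelled TRB3-ZF, chr2:1799775-1799803, minus strand: attacctcggAAACCCTAActtgatccac

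The NAC palindrome at AT5G55150 (fold 5.85 in the list labelled TRB3-ZF) lay 6 bp from the mean summit, and that at AT3G05741 (fold 2.28 in the list labelled TRB1-ZF replicate 2) 23 bp from it. Both regions, and that at SUS6, were under FLAG-JMJ14, and that at AT5G12090 was not. The list labelled Col-0 had no region with this motif within 100 bp of the summit. Over all 2085 regions the palindrome was found in 370 (17.7%), against 1.23% of all genome windows of 357 bp, the median width of the regions. By list it was found in 8.54% of the regions labelled TRB1-ZF replicate 1, 17.1% of those labelled TRB1-ZF replicate 2, 5.14% of TRB2-ZF and 27.7% of TRB3-ZF, against 2.72% of Col-0, the same order as the share under FLAG-JMJ14. None of the 31 regions in all 5 lists held it, although their median width was 1647 bp.

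The telobox was in 7.15% of the regions, against 2.74% of genome windows, with 7.87%, 7.38%, 7.11% and 9.66% in the lists labelled TRB1-ZF replicate 1, TRB1-ZF replicate 2, TRB2-ZF and TRB3-ZF, against 7.78% in that labelled Col-0. TTAGGG was in 23.3% of regions against 11.7% of windows, and GAGAGAGA in 8.82% against 5.55%. Within 200 bp around the mean summit the telobox was in 2.47%, 2.93%, 2.17% and 4.43% of the regions of the first 4 lists, against 1.17% for that labelled Col-0 and 1.57% of genome windows of that length. Widths differed between lists (median region width 438, 382, 470 and 431.5 bp, against 897 bp for the list labelled Col-0), which bears on the shares over whole regions.

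By position, exons outside UTRs held the largest share of summits in every list, with 45.6%, 47.0%, 38.5% and 60.8% in the lists labelled TRB1-ZF replicate 1, TRB1-ZF replicate 2, TRB2-ZF and TRB3-ZF, against 45.6% in that labelled Col-0 and 23.7% of the genome. With the promoter taken as 2 kb, promoters held more summits than exons in the lists labelled TRB1-ZF replicate 1 (41.4% against 33.1%), TRB1-ZF replicate 2 (43.3% against 33.2%) and TRB2-ZF (36.4% against 27.9%). The 1 kb upstream of genes held 20.3%, 22.0%, 17.9% and 18.9%, against 8.78% for the list labelled Col-0 and 21.3% of the genome. Sites far from genes held 8.58%, 3.68%, 18.9% and 1.58%, against 28.4% and 29.3% of the genome. The lists labelled TRB2-ZF and Col-0 therefore had the most peaks away from genes.

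Gene-poor chromatin held a different share of each list. Windows of 100 kb with under 20 kb of protein-coding genes were 167 of the 1193 windows of the genome and held 2.72%, 1.16%, 15.8% and 0.692% of the peaks of the lists labelled TRB1-ZF replicate 1, TRB1-ZF replicate 2, TRB2-ZF and TRB3-ZF, against 28.7% of that labelled Col-0. The Wilson 95% interval was 13.0 to 19.2% for the list labelled TRB2-ZF, which holds the share of windows that are gene-poor, and 23.9 to 34.1% for that labelled Col-0, which lies above it. Of the 75 regions shared by the lists labelled TRB2-ZF and Col-0 and no other, 65 lay in such windows, and 9 of the 14 Myc regions over 3 kb were among these 75. The widest, of 12203 bp at chr3:14192946-14205148, had no protein-coding gene at its mean summit. Its folds were 1.88 in the list labelled TRB2-ZF and 1.50 in that labelled Col-0, with -log10 q of 25.6 and 10.5. Regions at chr4:3950531-3955997, chr2:2119-7528 and chr5:11184573-11188798 had the same folds and -log10 q in these lists. Whether these regions are separate sites was not tested. These 2 lists were also the only ones with peaks on the organelle genomes, with 5 entries in the list labelled TRB2-ZF and 10 in that labelled Col-0, and what these peaks share with the gene-poor ones was not tested.

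The marks at these 75 regions differed from those elsewhere. H3K4me3 peaks were at 7 to 35 of them in the 7 TRB-ZF libraries, against 3 to 5 in the 3 fwa libraries. H3K27me3 peaks were at 38 to 62 in 5 TRB-ZF libraries, against 31 and 38 in the 2 fwa libraries. Over all Myc regions the H3K4me3 shares overlapped, with 36.8 to 44.6% in TRB-ZF and 37.7 to 43.2% in fwa libraries. The 75 regions were picked after their values were seen, so no test is given. The matching share over other gene-poor chromatin was not counted, and whether the 75 are separate sites was not tested. The 188 regions shared by the lists labelled TRB1-ZF replicate 2 and TRB3-ZF had H3K4me3 peaks at 59 to 69 of them in TRB-ZF and at 58 to 68 in fwa libraries.

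Over whole sets of Myc regions, neither mark was shown to differ between TRB-ZF and fwa libraries. The labels of these histone libraries give floral tissue at 5 to 6 weeks, while the methods describe leaves. The 2 sources thus differ, and how far these plants match the Myc leaves is unknown. H3K4me3 peaks were at 40.7% ± 3.55 of the 2085 regions in TRB-ZF (SD, n = 7) and at 39.9% ± 2.92 in fwa (SD, n = 3), with a difference of 0.81 points. A two-sided exact permutation test over libraries gave p = 0.733 and, after Benjamini-Hochberg adjustment over 6 tests, adjusted p = 1. At regions in 1 list the means were 36.8% ± 3.12 in TRB-ZF and 37.0% ± 2.89 in fwa (exact permutation p = 0.933, adjusted p = 1), and at regions in all 5 lists every library had 100%. The smallest p this design allows is 0.00833 by exact permutation.

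H3K27me3 peaks were at 16.4% ± 1.01 of the regions in TRB-ZF (SD, n = 5) and at 15.8% ± 1.09 in fwa (SD, n = 2), a difference of 0.585 points (exact permutation p = 0.571, adjusted p = 1). At the regions in all 5 lists they were at 20.6% ± 18.3 in TRB-ZF and 14.5% ± 16.0 in fwa (exact permutation p = 0.667, adjusted p = 1), and at regions in 1 list at 14.6% ± 0.851 and 14.6% ± 1.08 (exact permutation p = 1, adjusted p = 1). The smallest p allowed here is 0.0476 by exact permutation. The H3K27me3 list of TRB2-ZF replicate 2 held the same values as that of TRB1-ZF replicate 2 and was counted once.

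The wide spread went with the replicate numbers. At the regions in all 5 lists, H3K27me3 peaks averaged 7.53% in TRB-ZF replicate 1 libraries, against 3.23% in fwa replicate 1, and 40.3% in TRB-ZF replicate 2 libraries, against 25.8% in fwa replicate 2. For H3K4me3 over all Myc regions, TRB-ZF minus fwa was -0.38 points within replicate 1, 1.14 within replicate 2 and 1.20 within replicate 3. Within each number the difference for H3K27me3 at the regions in all 5 lists was positive, and with the replicate number as a block it was 9.41 points (exact permutation p = 0.167, adjusted p = 0.75, smallest p 0.0833).

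**Figure D5:**
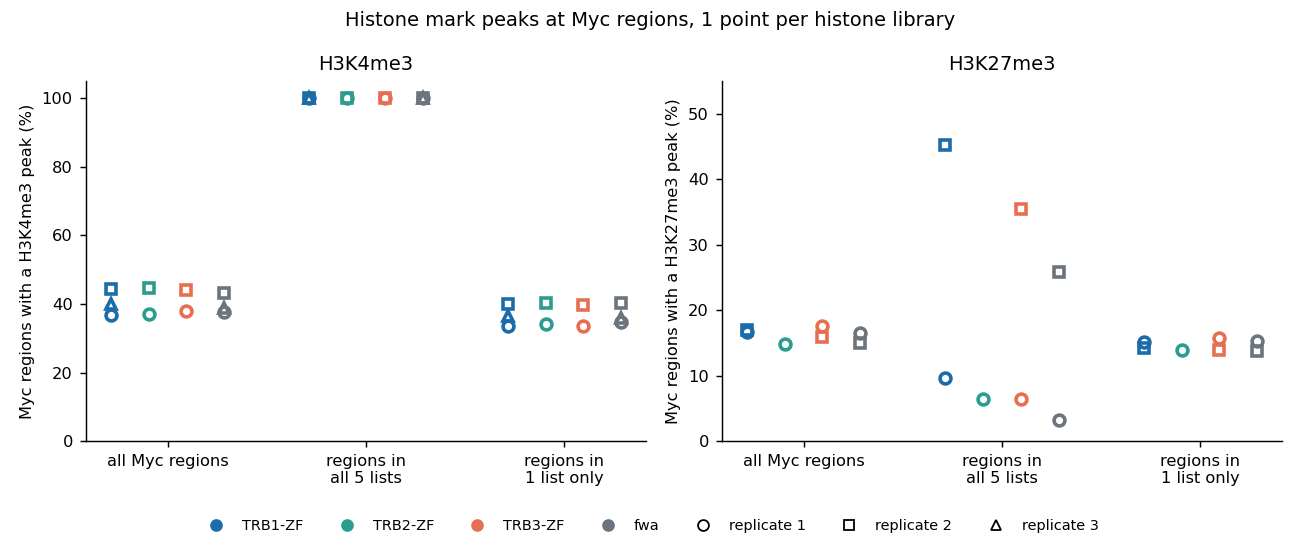
Percent of Myc regions with a H3K4me3 peak (left) or a H3K27me3 peak (right) on the y axis, for all Myc regions, regions in all 5 lists and regions in 1 list (x axis), 1 point per histone library, coloured by plant line and shaped by replicate number. TRB-ZF points (36.8 to 44.6% for H3K4me3 at all Myc regions) lay over the range of fwa (37.7 to 43.2%), and replicate 2 stood apart from replicate 1 in both.

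At FWA itself, the length and fold of the H3K4me3 peak were lower in TRB-ZF plants within each replicate number. The peak covered 823, 844 and 815 bp in the TRB1-ZF, TRB2-ZF and then TRB3-ZF library of replicate 1, against 1229 bp in fwa replicate 1. It covered 386, 506 and 586 bp in replicate 2, against 802 bp in fwa, and 937 bp in TRB1-ZF replicate 3, against 1335 bp in fwa. Folds were 3.17 to 8.94 in TRB-ZF libraries, against 7.93 to 11.1 in fwa libraries, so the ranges overlapped across numbers but not within them. H3K27me3 was listed at FWA only in TRB3-ZF replicate 2, over 284 bp with a fold of 2.53. The best H3K4me3 fold at TRB1 was 3.27 to 4.49 in TRB1-ZF libraries, against 5.55 to 10.8 in all other lines. The fold at TRB2 was 2.46 to 5.02 in TRB2-ZF libraries, against 9.28 to 14.03 in the others. These 2 loci went with the labels of the histone libraries, whereas at TRB3 the folds of 9.64 and 6.70 in TRB3-ZF libraries lay inside the range of the others (5.82 to 12.9).

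Single genes were called where the covered length in every TRB-ZF library lay beyond that in every fwa library. H3K4me3 was shorter at 12 of the 1618 Myc-bound genes (0.742%), against 0.652% of all 27444 genes, and longer at 1 (0.0618%), against 0.0583%. H3K27me3 was longer at 32 (1.98%), against 1.28%, and shorter at 46 (2.84%), against 3.18%. The share with longer H3K27me3 lay above the background and the others were near it. None was tested, so these calls say little about Myc-bound genes as a group. By list, the share with longer H3K27me3 was 2.74%, 0.850%, 1.75% and 1.47% in the lists labelled TRB1-ZF replicate 1, TRB1-ZF replicate 2, TRB2-ZF and TRB3-ZF, against 4.38% (7 of 160) in that labelled Col-0. Among these genes, AT2G08986, AT1G40104, AT2G07981 and AT2G16586 had regions in the lists labelled TRB2-ZF and Col-0 and no other.

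The called genes are given as examples, chosen after their values were seen. The gene with longer H3K4me3 was AT5G51180, with 1586 to 2027 bp in TRB-ZF and 1452 to 1585 bp in fwa. Shorter H3K4me3 was found at J20, a chloroplast DnaJ chaperone, with 679 to 831 bp in TRB-ZF and 874 to 1462 bp in fwa, and at AT5G39865, a glutaredoxin, with 0 to 280 bp in TRB-ZF and 342 to 588 bp in fwa. Longer H3K27me3 was found at PHO1, a phosphate exporter, with 2439 to 4580 bp in TRB-ZF and 683 to 1429 bp in fwa. SARD1, a regulator of salicylic acid synthesis, had 2262 to 3546 bp in TRB-ZF and 527 to 1732 bp in fwa. Shorter H3K27me3 was found at LOX3, a lipoxygenase of jasmonate synthesis, with 0 to 285 bp in TRB-ZF and 531 to 668 bp in fwa. CAF1b, a stress-induced deadenylase in 4 Myc lists, had 391 to 817 bp in TRB-ZF and 867 to 1847 bp in fwa.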

How the data were processed

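Peaks on chromosomes 1 to 5 were analysed. According to the submitters' processing notes, reads were aligned to TAIR10 with Bowtie2 2.1.0, handled with SAMtools 1.9 and peaks called with MACS2 2.1.1, and the methods state that sites giving peaks in several Col-0 replicates were filtered. The methods also state that only reads with a unique site and no mismatch were aligned. The control of the peak calls is not given in the sources used here. In the deposited lists, the fold of each peak over its background was made by the authors' caller, and was used for ranks and values. The deposited -log10 q served for a stricter threshold of 10, and the deposited summit position (other) for mean summits. The deposited count of reads per cytosine in the BS-PCR tables came with a sequence context, which was used only to check the build: all 2071 contexts compared equalled RefSeq TAIR10.1. Depth is unknown, as lists hold no reads. Histone lists from seedlings, input libraries and the Myc library without a Myc transgene were not analysed here.

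Distinct intervals were kept and touching intervals of the 5 lists merged into regions. A FLAG consensus region was a stretch that peaks of at least 2 lists of that protein covered. Gaps of up to 100 bp were closed, and stretches under 100 bp dropped. A region belonged to the protein-coding gene whose body or 1 kb upstream held its mean summit. Libraries were compared with two-sided exact permutation tests. Whether the replicates were separate plants is not stated, so p-values measure the spread between these libraries only. Genes named were FWA, JMJ14, the TRB genes, NAC050, NAC052, the genes of the study's Myc browser views, the 10 best-ranked regions in all lists and the 3 best of each list-specific class. Other genes were named from the gene groups or after their values were seen. The members, lists and rules were chosen with earlier results of these data known. Same-numbered histone libraries deviated together, with r of 0.675 to 0.890 over 13 pairs for H3K4me3. For H3K27me3 r was 0.534 to 0.603 over 6 pairs, and replicate numbers were therefore used to pair the libraries. In groups of 2 libraries the deviations mirror each other, so each r for H3K27me3 stood under both numbers and these pairs are not separate. H3K4me3 libraries of replicates 1 and 3 also deviated together (r of 0.582 to 0.752), so the numbers mainly set replicate 2 apart. Alternatives were a stricter q, an overlap of at least 50%, lists of equal length, other windows and leaving out each list or library. Computations ran in Python 3.11.15 with scipy 1.17.1 and numpy 2.4.6, and were tested on simulated data.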

Additional observations from a re-analysis of the deposited data

Results flagged for a closer look

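H3K27me3 at all Myc regions lay on opposite sides of the fwa mean in 2 fusions, with the identical lists of TRB1-ZF and TRB2-ZF replicate 2 left out. TRB1-ZF was 0.863 points above the mean of fwa and TRB2-ZF was -0.911 points from it. Each value rests on 1 library of replicate 1, and the difference was not tested. Against fwa of the same replicate number (16.6% of regions), TRB1-ZF was nearly level (16.7%) and TRB2-ZF lower (14.9%). In data outside the comparisons, the list labelled TRB2-ZF had 5 peak entries on the organelle genomes and that labelled Col-0 had 10, above the 3 that a count of 0 allows, while the other 3 lists had none. Shares of Myc regions with a mark were also examined for a library far from the rest in 6 sets of TRB-ZF libraries, and none was.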

How the results depend on the processing

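With a -log10 q of at least 10, no region was in all 5 lists and 211 were in 1 list only, with 19, 44, 43 and 88 in the lists labelled TRB1-ZF replicate 1, TRB1-ZF replicate 2, TRB2-ZF and TRB3-ZF and 17 in that labelled Col-0. With every list cut to 296 peaks by fold, no region was in all 5 lists and 806 were in 1 list only, with 124, 265 and 148 in those labelled TRB1-ZF replicate 2, TRB3-ZF and Col-0. Leaving out each list in turn gave 31 to 88 regions in all remaining lists and 907 to 1443 in 1 list only, with 115 to 211, 408 to 594, 166 to 239 and 679 to 874 in the lists labelled TRB1-ZF replicate 1, TRB1-ZF replicate 2, TRB2-ZF and TRB3-ZF and 32 to 114 in that labelled Col-0. The 88 regions remained without the list labelled TRB3-ZF. Myc peaks under FLAG-JMJ14 made up 4.84%, 10.3%, 0.752% and 44.1% of the first 4 lists, against 1.06% of that labelled Col-0, when both were held to a -log10 q of at least 10. With stricter Myc peaks only, an alternative chosen after seeing the data, they made up 9.68%, 19.8%, 4.51% and 54.1%, against 2.13%. With lists of equal length the list labelled TRB1-ZF replicate 2 had 21.6%, and with the summit inside the region that labelled Col-0 had 0.338%. Cause was not tested for any of these.

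The 6 tests of marks stayed past no threshold under all 79 alternatives (smallest p 0.117 by exact permutation, adjusted p 0.381 to 1). With the replicate block, H3K4me3 at all Myc regions differed by 0.65 points and H3K27me3 by 0.592 (exact permutation), and the pairing changed no call. Leaving out each histone library gave differences of -0.295 to 2.46, 0 to 0 and -1.24 to 1.50 points for H3K4me3 and -0.182 to 1.35, -5.16 to 17.4 and -0.744 to 0.788 for H3K27me3, at all Myc regions, regions in all 5 lists and regions in 1 list. Counts of called Myc-bound genes were then 1 to 13 (longer) and 13 to 54 (shorter) for H3K4me3, and 34 to 66 and 49 to 171 for H3K27me3. Longer H3K4me3 had 0 genes with gene bodies only and 0 with stricter histone peaks, where longer H3K27me3 had 19. The share over all genes was not counted under these alternatives, so these counts say nothing about Myc-bound genes in particular.

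With 2 kb upstream, the promoter share was 41.4%, 43.3%, 36.4% and 39.3%, against 25.3% for the list labelled Col-0, and exceeded that of exons in the first 3. In 200 bp around the summit, TTAGGG was in 12.4% of all regions, 3.23% of those in all 5 lists and 13.1% of those in 1 list. AAACCCTAA was in 3.36%, 0% and 3.57%, GAGAGAGA in 3.50%, 3.23% and 3.94%, and CTTGNNNNNCAAG in 12.7% and 13.5% of all regions and those in 1 list.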
